A study of Mus musculus with 43 samples.

Results

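The genes described here were the cadherins and the non-clustered protocadherins, 35 of 56980 genes in the count table. They were chosen by name and type: protein-coding rows called Cdh or Pcdh followed by a number, and Pcdh11x. RNA-seq was performed on GFP-labelled cells sorted from the somatosensory cortex of C57BL/6JRccHsd mice after in utero electroporation of the progenitors of layer 2/3 (L2/3) neurons. The 43 libraries comprised 24 of embryonic day E19, with 4 females and 4 males each for the genotypes WT, Cux1 KO and Cux2 KO. At postnatal day P4 there were 3 per sex of WT and Cux2 KO and 2 of male Cux1 KO, and at P7 there were 2 of female and 3 of male WT. WT, Cux2-/- and, at E19, Cux1ΔC/ΔC animals carried their genotype in every cell and received pCAG-GFP. The Cux1 KO animals at P4 were Cux1 f/Δ23, in which pCALNL-GFP and pCAG-iCre removed the remaining floxed allele only in the electroporated cells, so their surroundings kept 1 functional copy. Both GFP plasmids use the ubiquitous CAG promoter, so any descendant of an electroporated progenitor, neuron or glia, can carry the label.

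Cadherins are transmembrane proteins that join cells through calcium-dependent contacts between their extracellular repeats. Classical cadherins bind catenins inside the cell and through them the actin cytoskeleton, and the type I and type II classes differ in how their outermost repeats pair. Non-clustered protocadherins lack the catenin-binding tail. The delta-1 and delta-2 classes are known in the cortex for roles in cell sorting, axon outgrowth and synapse formation, and several delta-2 members recruit the WAVE actin regulators.

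The upstream sequence of 4 members is shown because these carried the stage difference described below and have an entry in the RefSeq promoter table (GRCm38.p6): Pcdh8 and Cdh8, which fell, and Pcdh9 and Pcdh15, which rose. Each is the longest stretch of the 250 bases before the RefSeq transcription start of the entry that lay outside every annotated exon of the gene, located by exact match in GRCm39. For Pcdh15 and Cdh8 this start was internal. Their annotated genes begin further upstream, at chr10:72935174 and chr8:100144308, so these 2 stretches lie within an intron of the gene. Pcdh8 lies at chr14:80008753-80009002 (minus strand), Cdh8 at chr8:100143149-100143241 (minus), Pcdh9 at chr14:94128153-94128365 (minus) and Pcdh15 at chr10:73657449-73657689 (plus). Capitals mark CCAAT on either strand (ATTGG on the other strand), a sequence that Cux proteins are known to bind among other factors.
Pcdh8: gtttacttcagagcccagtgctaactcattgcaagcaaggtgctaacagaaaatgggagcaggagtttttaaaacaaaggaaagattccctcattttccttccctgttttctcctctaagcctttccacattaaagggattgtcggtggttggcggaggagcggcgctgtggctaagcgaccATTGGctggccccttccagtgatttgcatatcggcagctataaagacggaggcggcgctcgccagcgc
Cdh8: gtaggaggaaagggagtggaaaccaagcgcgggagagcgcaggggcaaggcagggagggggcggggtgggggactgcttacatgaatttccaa
Pcdh9: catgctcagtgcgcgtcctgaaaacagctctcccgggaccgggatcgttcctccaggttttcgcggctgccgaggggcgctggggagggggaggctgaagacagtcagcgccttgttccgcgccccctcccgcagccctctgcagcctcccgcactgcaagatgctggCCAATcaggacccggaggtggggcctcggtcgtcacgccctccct
Pcdh15: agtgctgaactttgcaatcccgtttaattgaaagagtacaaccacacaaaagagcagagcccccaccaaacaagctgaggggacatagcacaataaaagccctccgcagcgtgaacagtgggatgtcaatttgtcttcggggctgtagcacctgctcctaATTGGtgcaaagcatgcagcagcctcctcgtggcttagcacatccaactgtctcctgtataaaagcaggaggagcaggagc
The table held 25 promoters of 22 of the 35 members. CCAAT was found in the 250 upstream bases of 15 of these 25, against 33.8% of all 32851 promoters. The 2 entries of Pcdh9 overlap and hold the same CCAAT, which is therefore counted in both. ATCGAT, another Cux sequence, was found in 0 of 25 (0.728% of all) and ATCAAT in 1 of 25 (6.72% of all), that of Pcdh17. Promoters of members that rose, fell and did neither held CCAAT, as in Pcdh9, Pcdh8 and Pcdh10. The CCAAT of Cdh8 lay in the 250 bases but outside the stretch printed, which therefore holds no capitals.

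The depth per library was 13321095 to 20715732 counts for E19, 19499125 to 60559585 for P4 and 15312029 to 27633827 for P7. Levels below are in CPM (counts scaled to library size) after TMM scaling over all 43 libraries. E19 was sequenced in an earlier round than P4 and P7, so stage and round cannot be told apart between E19 and P4. All 12 upper-layer markers had counts in each group, with a sum of 3634 to 5043 CPM in WT at E19, 1015 to 1344 at P4 and 621 to 914 at P7. The 12 astrocyte and radial glia markers summed to 2117 to 3099, 5414 to 8134 and 10656 to 14854 CPM, and the 12 oligodendrocyte lineage markers to 546 to 815, 778 to 3730 and 4297 to 6427 CPM. No gene of these 3 lists was at 0 throughout a WT stage. Because these are bulk samples, fewer cells of a type and less RNA per cell cannot be told apart. The targeted genes were counted over their whole length, which does not separate the deleted part. Cux1 was at 290.6 to 340.5 CPM in E19 female libraries labelled Cux1 KO and 343.0 to 491.4 in their WT, with an overlap in males and at P4. Cux2 at P4 was at 28.9 to 62.1 CPM in libraries labelled Cux2 KO and 27.9 to 49.7 in WT, so the counts do not check these labels.

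The members spanned a wide range of levels. Of the 35, 18 had counts in every library, 21 reached a mean of 10 CPM and 10 stayed under 1 CPM. Cdh16, a cadherin of kidney epithelium, had at most 3 counts in any library, and Cdh1 (E-cadherin) and Cdh3 (P-cadherin) had at most 5 and 21. Per kilobase of exon, the scale on which genes can be compared, N-cadherin (Cdh2) was highest in WT at E19, at 55.9 ± 5.0 CPM per kb (SD, n = 8). Pcdh8 followed at 39.0 ± 6.8 and Cdh4 (R-cadherin) at 38.1 ± 6.6, which did not differ beyond their spread. Cdh24 had rank 4 at 13.7 ± 1.9 and Cdh8 rank 5 at 8.67 ± 0.90. At P4 the order was Cdh2 at 33.0 ± 4.9, Pcdh9 at 28.4 ± 10.5 and Cdh4 at 19.4 ± 2.4 CPM per kb (n = 6), the first 2 within their spread. At P7 Pcdh9 and Cdh2 led at 27.1 ± 4.7 and 24.2 ± 2.3 CPM per kb (n = 5), again within their spread, and Cdh13 had rank 3 at 17.7 ± 4.8. Pcdh8 had moved from rank 2 at E19 to rank 13 at P4 and 15 at P7, and Cdh13 from rank 17 to 4 and 3.

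**Figure D1:**
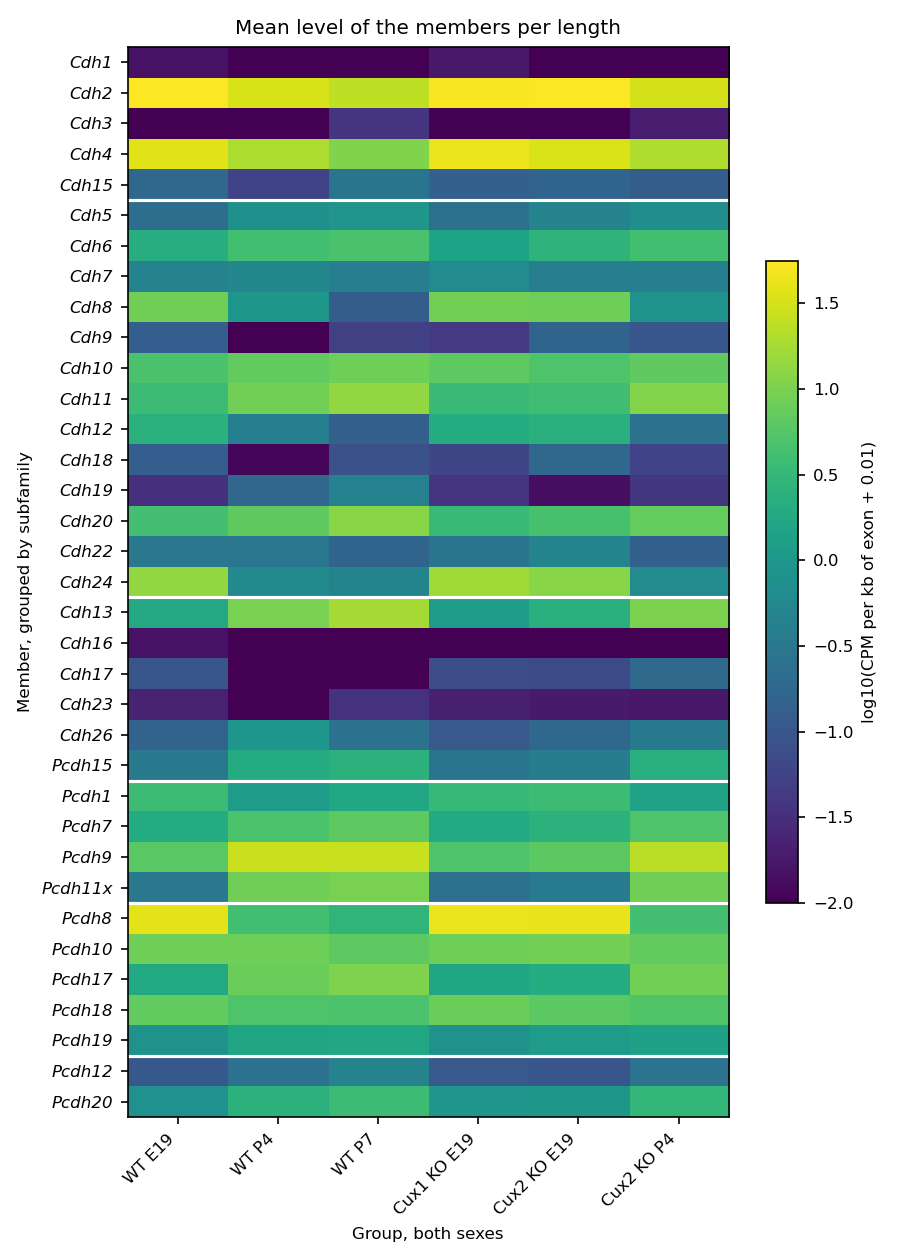
Mean level of each of the 35 members (rows, grouped by subfamily between white lines) in 6 groups of libraries with the sexes joined (columns), as log10 of CPM per kilobase of exon plus 0.01. Cdh2 and Cdh4 were high in every column, Pcdh8, Cdh24 and Cdh8 were high only in the E19 columns, and Pcdh9, Cdh13 and Pcdh11x were higher at P4 and P7.

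Between E19 and P4 the WT repertoire of members was rearranged in both directions. Of the 29 members tested, 10 rose and 7 fell past an adjusted p of 0.05 (edgeR quasi-likelihood test, sex as covariate, Benjamini-Hochberg over all genes) and a log2 change of 1. Of all 18585 genes tested, 46.3% passed, 22.6% upward and 23.7% downward, so that a share of 17 in 29 lay near that of genes in general. The median log2 change was 0.51 over the members tested and 0.03 over all genes. The libraries of the 2 stages did not overlap for 13 of 29 members, against 47.9% of all genes. By subfamily, 3 of 4 delta-1 protocadherins rose (Pcdh7, Pcdh9, Pcdh11x) and 1 fell (Pcdh1). Of 5 delta-2 protocadherins 1 rose (Pcdh17) and 1 fell (Pcdh8), and of 12 type II cadherins tested 2 rose (Cdh5, Cdh11) and 5 fell (Cdh8, Cdh9, Cdh12, Cdh18, Cdh24). No type I cadherin passed. Cdh2 and Cdh4 met the adjusted p but not the fold, at −0.77 ± 0.10 (SE) and −0.99 ± 0.12 on the log2 scale, and Cdh4 passed both with DESeq2 size factors (−1.02) and when any of 6 libraries was left out.

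**Figure D2:**
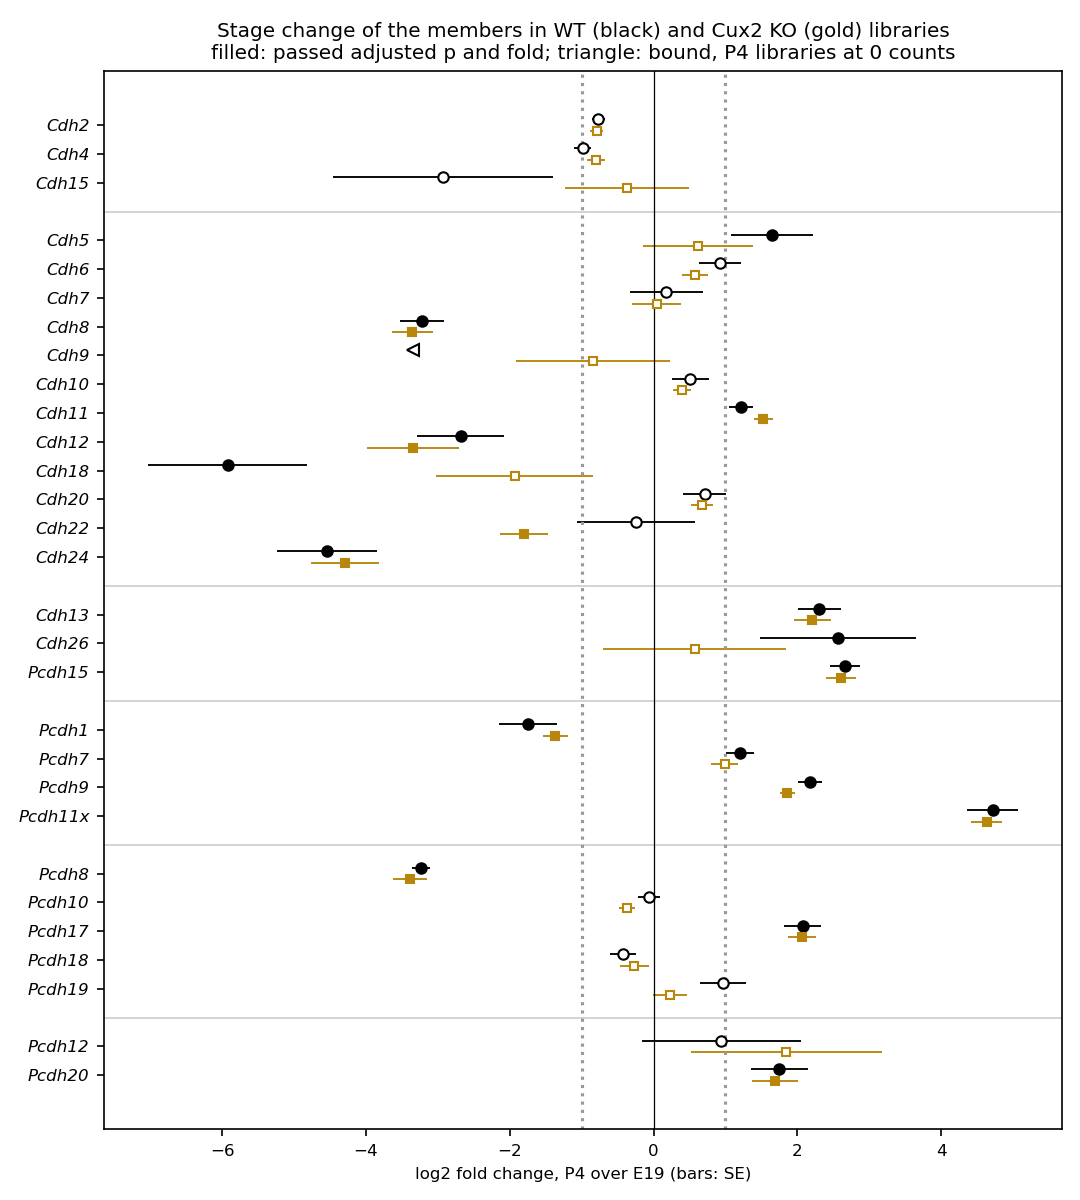
log2 fold change from E19 to P4 (x axis, bars SE) of the 29 members tested in WT (black circles) and Cux2 KO (gold squares) libraries, by subfamily between grey lines. Filled symbols passed the adjusted p and a log2 change of 1 (dotted lines), and the triangle is the bound for Cdh9, which had 0 counts in all WT libraries at P4.

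The X-linked delta-1 member Pcdh11x had the greatest fitted increase, from a lowest, median and highest level of 2.08, 3.92 and 6.41 CPM at E19 (n = 8) to 21.9, 106 and 225 CPM at P4 (n = 6). All P4 libraries were above all E19 libraries but spread widely among themselves. The log2 change was 4.72 ± 0.36 (SE, edgeR adjusted p = 2.7e-08). Pcdh9, an autosomal delta-1 protocadherin, rose from 37.5, 56.0 and 74.8 CPM to 190, 227 and 451 CPM (log2 change 2.17 ± 0.16, adjusted p = 2.5e-08). Pcdh7, also a delta-1 member, went from 21.5, 34.3 and 55.2 CPM to 38.1, 84.6 and 119 CPM. Its groups overlapped, and the log2 change was 1.20 ± 0.19 (adjusted p = 5.0e-05).

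Cdh13 (T-cadherin), which is anchored in the membrane by a lipid and has no intracellular domain, was at 11.2, 19.1 and 36.3 CPM at E19 and 37.5, 104 and 187 CPM at P4. The groups did not overlap, with a log2 change of 2.30 ± 0.30 (adjusted p = 6.8e-06). Pcdh15, best known as part of the tip link of inner ear hair cells, rose from 4.23, 7.44 and 12.6 CPM to 22.9, 43.3 and 74.3 CPM (log2 change 2.66 ± 0.21, adjusted p = 3.0e-08). Its tip-link partner Cdh23 was not tested for lack of counts. Pcdh17, a delta-2 member found at synapses, rose from 18.8, 24.2 and 29.8 CPM to 36.6, 107 and 192 CPM (log2 change 2.07 ± 0.26, adjusted p = 4.6e-06). Cdh11, a type II cadherin, rose from 33.1, 42.4 and 58.3 CPM to 51.7, 101 and 137 CPM, with 1 P4 library inside the E19 range (log2 change 1.22 ± 0.17, adjusted p = 1.2e-05). Pcdh20 rose from 3.66, 8.52 and 20.6 CPM to 16.7, 22.4 and 73.4 CPM, with overlap (log2 change 1.75 ± 0.40, adjusted p = 0.0011).

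Cdh5 (VE-cadherin, the adhesion molecule of endothelium) and Cdh26 passed at low levels. Cdh5 was at 0.19 to 2.69 CPM at E19 and 0.46 to 7.01 at P4 (log2 change 1.64 ± 0.57, adjusted p = 0.020), while the 12 endothelial markers summed to 4.13 to 49.0 and 69.9 to 292 CPM. The part of endothelial RNA in the Cdh5 change was not tested. Cdh5 no longer passed without female P4 replicate 2 (adjusted p = 0.068). Cdh26 was at 0, 0, 1.21, 1.61, 2.92 and 10.9 CPM in the 6 P4 libraries, and without the highest, male replicate 3, its log2 change went from 2.57 ± 1.09 (adjusted p = 0.047) to 0.45 (adjusted p = 0.79). It also lost its adjusted p when any of 10 other libraries was left out, and with a replicate block (1.54, adjusted p = 0.30).

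Pcdh8, a delta-2 protocadherin known in neurons as an activity-regulated adhesion molecule (arcadlin), had the smallest adjusted p of the members. It fell from a lowest, median and highest level of 151, 167 and 234 CPM at E19 to 15.3, 18.8 and 23.3 CPM at P4. The log2 change was −3.23 ± 0.12 (SE, adjusted p = 3.8e-11) and no library of one stage reached the other. The type II cadherin Cdh8 fell from 77.6, 84.1 and 101 CPM to 3.61, 7.54 and 20.4 CPM (log2 change −3.22 ± 0.31, adjusted p = 3.2e-07). Cdh24, of the same class, fell from 42.6, 51.2 and 63.8 CPM to 0.016, 1.32 and 6.15 CPM (log2 change −4.55 ± 0.69, adjusted p = 3.5e-05). Cdh12, a further type II member, went from 10.5, 17.6 and 26.2 CPM to 0.018, 3.36 and 4.77 CPM (log2 change −2.68 ± 0.61, adjusted p = 0.0012). In each of these 4 genes the groups did not overlap. The part of the lower upper-layer sums at P4, given above, in these falls was not tested.

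Pcdh1, the delta-1 member that moved opposite to its class, fell from 26.1, 35.5 and 41.2 CPM to 1.45, 10.8 and 17.2 CPM, again without overlap (log2 change −1.75 ± 0.41, adjusted p = 0.0014). Cdh9 and Cdh18, type II cadherins that lie on chromosome 15 with Cdh6, Cdh10 and Cdh12, passed from levels of at most 1.67 and 2.08 CPM at E19. Cdh9 had no count in any P4 library, which makes it at least 10.2-fold lower against a floor of 3 counts per library, and Cdh18 was at 0.10 CPM in 1 of 6 and 0 in the others. Pcdh19, an X-linked delta-2 member whose loss causes an epilepsy in which females are affected, was at 4.80, 8.04 and 13.8 CPM at E19 and 5.30, 17.1 and 25.6 CPM at P4. Its log2 difference of 0.97 ± 0.33 met the adjusted p (0.016) but not the fold. Without female P4 replicate 3, its lowest P4 library, the log2 change was 1.15 (adjusted p = 0.0020) and passed both, and without female P4 replicate 1 it was 0.74 (adjusted p = 0.066).

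**Figure D3:**
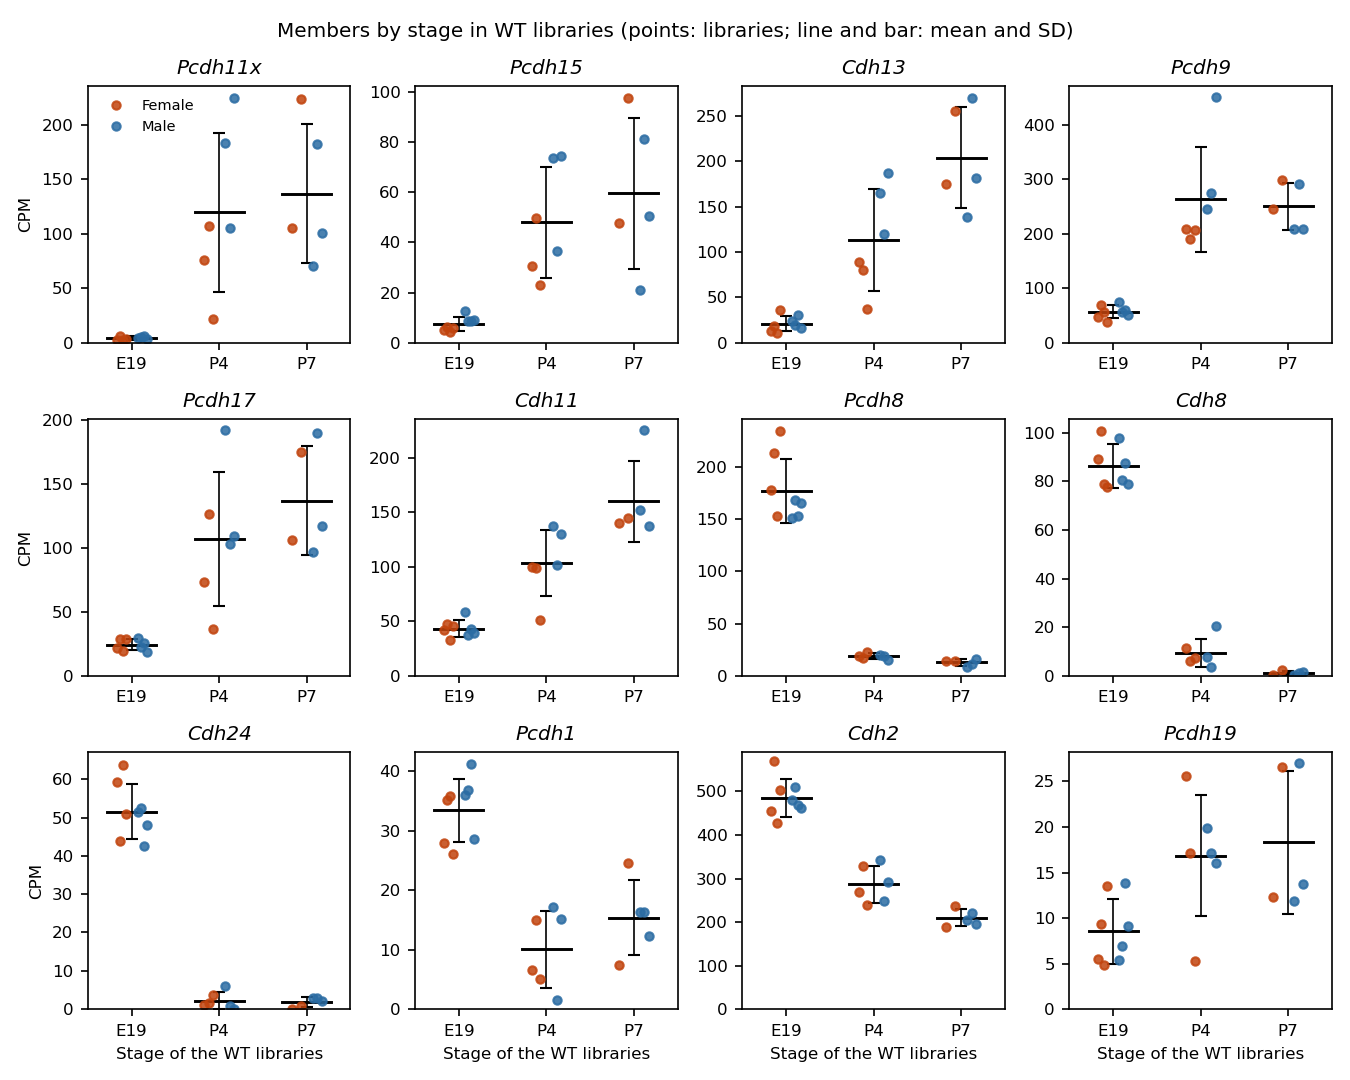
CPM (y axis) of 12 members in each WT library at E19, P4 and P7 (x axis), with female libraries in orange and male in blue, and the mean and SD of each stage as a line and bar. Pcdh8, Cdh8 and Cdh24 at P4 lay below all E19 libraries, while Pcdh11x at P4 ranged from 21.9 to 225 CPM.

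The libraries labelled Cux2 KO allow the stage change to be measured in 14 other libraries, which share none with WT but share the stages and sequencing rounds. There 13 of 30 members tested passed, 7 upward and 6 downward, against 47.9% of all 19102 genes. Of the 17 members that passed in WT, 12 passed with the same sign in Cux2 KO (12 of the 13 there). In these libraries Pcdh11x changed by 4.63 ± 0.21, Pcdh8 by −3.39 ± 0.24, Cdh8 by −3.36 ± 0.29 and Cdh13 by 2.21 ± 0.26 on the log2 scale (SE). Of the 5 others, Pcdh7 met the adjusted p at a log2 change of 0.99, and Cdh5, Cdh9, Cdh18 and Cdh26 did not, with adjusted p of 0.48, 0.49, 0.12 and 0.70. Cdh22 passed in Cux2 KO at −1.80 ± 0.34 and was at −0.24 in WT (adjusted p = 0.80). The difference between genotypes was not tested.

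Several of the members that rose also varied with the oligodendrocyte lineage markers among the P4 libraries. In WT these markers summed to 1932, 2215 and 778 CPM in female replicates 1 to 3 and to 3730, 2719 and 3049 CPM in male replicates 1 to 3. Pcdh11x in the same order was at 76.3, 107 and 21.9 CPM in females and 183, 105 and 225 CPM in males, and Cdh13 was at 88.5, 79.8 and 37.5 and at 165, 120 and 187 CPM. Female replicate 3 was lowest for the marker sum and for both genes, and it also had the lowest depth of these libraries. Over the 14 P4 libraries of all genotypes, the relation of log2 levels was tested for 18 members with a mean of at least 10 CPM and 3 marker lists, 54 relations in all, chosen after the values were seen. With the oligodendrocyte lineage sum 7 members had an adjusted permutation p under 0.05 by Pearson's r, all positive, and with the astrocyte and upper-layer sums 0 did. The smallest r among these 7 was 0.71, which 3.33% of the 11025 other genes at that level reached or passed. The median r was 0.62 over the 18 members and 0.12 over those genes, a description of libraries in which the members were chosen with results known.

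The strongest relation was that of Cdh11, with Pearson's r = 0.90 (permutation p = 4.0e-05, adjusted p = 0.0022) and Spearman's rho = 0.82 (adjusted p = 0.017). Without the 2 libraries farthest from the median marker sum r was 0.78, and it was 0.98 within the 6 WT and 0.88 within the 6 Cux2 KO libraries. In WT this marker sum did not overlap between the sexes, so its relation to a member cannot be told apart from sex there. The permutations ignored sex and genotype. Cdh13 had r = 0.84 (permutation p, adjusted, 0.0050) and rho = 0.78 (adjusted 0.025), with 0.82 without the 2 farthest, 0.95 in WT and 0.91 in Cux2 KO. Pcdh17 had r = 0.83 (permutation p, adjusted, 0.0050) and rho = 0.73 (adjusted 0.045), with 0.61, 0.94 and 0.72. Cdh10, a type II cadherin that did not pass between stages, had r = 0.81 (permutation p, adjusted, 0.0055) and rho = 0.75 (adjusted 0.041), with 0.74, 0.83 and 0.73. Pcdh10, Pcdh15 and Pcdh11x had r of 0.76, 0.71 and 0.73, with rho of 0.65, 0.70 and 0.53 whose adjusted permutation p were 0.091, 0.065 and 0.23. For Pcdh15 r went to 0.45 without the 2 farthest libraries and 0.37 in Cux2 KO. Pcdh9, with r = 0.24 and a permutation p of 0.39, showed no such relation. With the upper-layer sum Pcdh11x had rho = 0.82 (adjusted permutation p = 0.017) but r = 0.49 (adjusted permutation p = 0.29). The markers Pdgfra and Cspg4 also belong to the fibroblast and mural lists, respectively. Other sums moved with the oligodendrocyte lineage sum. In WT at P4 the 13 mitochondrially encoded genes summed to 4482, 2982 and 5470 CPM in females and 2046, 3152 and 1377 CPM in males, and leptomeningeal fibroblast markers to 338, 479 and 204 CPM and to 714, 468 and 908 CPM. Endothelial and mural sums, given below, were also higher in males. Depth was 26654499, 37079440 and 20919432 counts in WT female replicates 1 to 3 at P4 and 50429979, 35891853 and 60559585 in male replicates 1 to 3. These depths had the same rank order as Pcdh11x. The part of depth, of these RNAs and of oligodendrocyte lineage RNA in the stage change and the spread of these members was not tested.

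**Figure D4:**
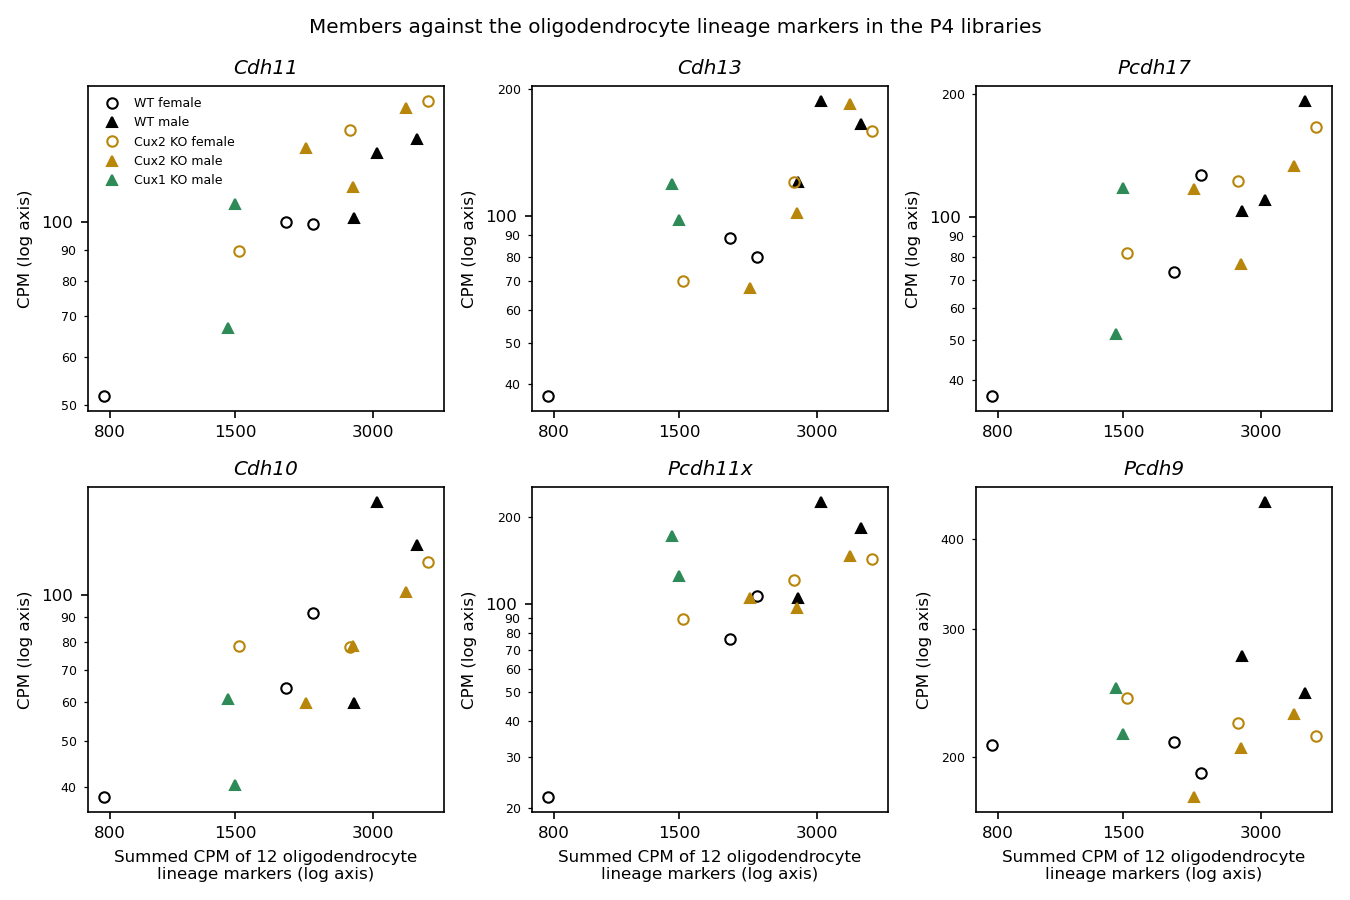
CPM of 6 members (y axis, log) against the summed CPM of 12 oligodendrocyte lineage markers (x axis, log) in the 14 P4 libraries, with WT in black, Cux2 KO in gold and Cux1 KO in green, open circles for females and triangles for males. Cdh11, Cdh13, Pcdh17 and Cdh10 were lowest where the marker sum was lowest (778 CPM), and Pcdh9 was not.

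From P4 to P7 the members moved little. Cdh8 was the only 1 of 29 members tested that passed (adjusted p under 0.05 and log2 change over 1), against 2.29% of all 20936 genes. It fell further, from 11.3, 6.01, 7.34, 7.74, 3.61 and 20.4 CPM in the 6 P4 libraries to 0.45, 2.41, 0.33, 1.13 and 1.44 CPM in the 5 P7 libraries, with no overlap. The log2 change was −3.00 ± 0.62 (SE, adjusted p = 0.021). It was −2.80 without female P7 replicate 1 (adjusted p = 0.054) and −2.99 without male P7 replicate 2 (adjusted p = 0.062), so that the call rested on these libraries. Cdh4 and Cdh2 continued downward with an adjusted p of 0.014 and 0.041 and log2 changes of −0.80 ± 0.15 and −0.44 ± 0.11, under the fold threshold. Cdh4 was at 120 to 160 CPM at P4 and at 79.6, 71.5, 81.3, 63.8 and 103 CPM at P7, and Cdh2 at 239 to 343 and at 189, 237, 205, 221 and 195 CPM. Both genes lacked any overlap, and the libraries of these 2 stages did not overlap for 3 of 29 members against 7.34% of all genes. Cdh13 was at 175, 255, 139, 270 and 181 CPM at P7, with a log2 difference from P4 of 0.94 ± 0.31 that did not pass (adjusted p = 0.099). Pcdh19 was at 12.3, 26.6, 11.8, 27.1 and 13.7 CPM at P7 (log2 difference 0.13 ± 0.38, adjusted p = 0.89).

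The intracellular partners and relatives of the cadherins, grouped in 4 lists, held 46 genes tested between E19 and P4, of which 21 fell and 0 rose, where 23.7% of all genes fell and 22.6% rose. The upper-layer sums given above were lower and the astrocyte sums higher at P4, and their part in these falls was not tested. Of 15 catenins and junction adaptors tested, 8 fell, with a median log2 change of −1.05. Beta-catenin (Ctnnb1), which links classical cadherins to alpha-catenin, fell by 2.18 ± 0.07 on the log2 scale (SE, adjusted p = 1.4e-11). The p120 family member Arvcf changed by −2.91 ± 0.23, alpha-N-catenin (Ctnna2) by −1.08 ± 0.09, plakoglobin (Jup) by −2.41 ± 0.21 and Pkp4 by −1.61 ± 0.15. Of 13 atypical cadherins 9 fell, with a median of −2.26. The 5 of smallest adjusted p were Dchs1 at −4.19 ± 0.19, Celsr1 at −3.58 ± 0.18, Celsr2 at −2.26 ± 0.15, Clstn1 at −2.67 ± 0.18 and Celsr3 at −5.68 ± 0.43, genes of planar polarity except for the synaptic Clstn1. Clstn2 at −4.46 ± 0.48 and Fat4 at −3.13 ± 0.32 fell by more than Celsr2 and Clstn1. Of 14 sheddases and WAVE complex genes 3 fell, the WAVE subunits Cyfip2, Nckap1 and Wasf3, at −1.52 ± 0.13, −1.04 ± 0.15 and −1.06 ± 0.18. Nectin1 was the only 1 of 4 nectins that fell, at −2.54 ± 0.18. By edgeR no gene of these 4 lists passed between P4 and P7, and none did in any comparison of sexes or genotypes. The paper, which used DESeq2, names the atypical cadherin Fat3 among the genes dysregulated in Cux1 KO of both sexes at E19. In males it also names Fat3 at P4. These lists were not read in the DESeq2 fits made here.

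The comparison of WT females with males asked whether members differ by sex at each stage. No member passed at any stage. At E19 0 of 28 members tested passed (0.0461% of all 17344 genes), at P4 0 of 26 (0% of 19213) and at P7 0 of 30 (0.0247% of 20271), by edgeR with an adjusted p under 0.05 and a log2 difference over 0.5 at E19 and 1 later. This test called no gene at P4, so Xist and the Y-linked genes that the paper found to differ at every stage did not pass either. The 0 members at P4 therefore cannot show that the members do not differ by sex. At an unadjusted p under 0.05 there were 3, 4 and 1 members, against 3.67%, 7.28% and 4.36% of all genes. DESeq2 without shrinkage called 0, 1 and 1, namely Cdh13 at P4 and Pcdh18 at P7, where it called 0.044%, 0.82% and 0.258% of all genes.

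At P4 all 4 members with an unadjusted p under 0.05 were higher in males. Pcdh7 was at 55.0, 74.7 and 38.1 CPM in females and 119, 94.4 and 119 in males (log2 female over male −0.95 ± 0.25, edgeR adjusted p = 0.67). Cdh13 was at 88.5, 79.8 and 37.5 and at 165, 120 and 187 CPM (−1.15 ± 0.34, adjusted p = 0.67 by edgeR and 0.047 by DESeq2 without shrinkage). Pcdh9 was at 209, 190 and 208 and at 245, 275 and 451 CPM (−0.62 ± 0.23, adjusted p = 0.67). Pcdh10 was at 126, 129 and 75.3 and at 220, 148 and 162 CPM (−0.64 ± 0.26, adjusted p = 0.67). The sexes did not overlap in these 4 genes and in Cdh11, 5 of 26 members tested, as in 14.9% of all genes. The oligodendrocyte lineage sums did not overlap either, at 778 to 2215 CPM in females and 2719 to 3730 in males. Endothelial sums were 69.9 to 97.2 and 156 to 292 CPM, and mural sums 167 to 222 and 331 to 507 CPM. The part of these cells in the differences between the sexes was not tested.

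Both X-linked members were read for sex in particular. Pcdh19 was at 5.53, 9.38, 4.80 and 13.5 CPM in E19 females and 5.43, 6.97, 13.8 and 9.11 in males (log2 female over male −0.09 ± 0.34). At P4 it was at 25.6, 17.1 and 5.30 and at 19.9, 17.2 and 16.0 CPM (−0.10 ± 0.53), and at P7 at 12.3 and 26.6 and at 11.8, 27.1 and 13.7 CPM (0.18 ± 0.48). The adjusted p were 0.986 or more, and in each stage the sign turned when single libraries were left out. Pcdh11x was at 2.08, 5.81, 2.52 and 3.49 CPM in E19 females and 4.34, 5.25, 6.41 and 3.49 in males (−0.49 ± 0.33), and at P4, with values given above, −1.28 ± 0.56 (adjusted p = 0.69). At P7 it was at 105 and 224 CPM in females and 70.9, 182 and 101 CPM in males (0.52 ± 0.46). In all these stages the sexes overlapped.

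Of the other named members, Pcdh15 at E19 was at 5.0, 6.44, 4.23 and 5.89 CPM in females and 12.6, 8.46, 8.45 and 8.90 in males, without overlap (−0.84 ± 0.21, unadjusted p = 0.0018, edgeR adjusted p = 0.99). The oligodendrocyte lineage sum at E19 did not overlap between the sexes either, at 546 to 645 CPM in females and 664 to 815 in males, and its part was not tested. Pcdh8 and Pcdh7 at E19 differed by 0.28 ± 0.12 and −0.46 ± 0.21 on the log2 scale (unadjusted p = 0.033 and 0.049 by edgeR). Pcdh18, a delta-2 member, was at 12.7 and 16.5 CPM in P7 females and 34.9, 28.3 and 38.7 CPM in males (−1.20 ± 0.25, unadjusted p = 0.0032, adjusted p above 0.99 by edgeR and 0.017 by DESeq2 without shrinkage). Mural sums at P7 were 340 and 351 CPM in females and 778, 511 and 1152 CPM in males, and their part was not tested. Cdh24 and Cdh9 at P7 were below 3 CPM and had unadjusted p of 0.11 and 0.088 by edgeR.

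The comparison of libraries labelled Cux1 KO and Cux2 KO with WT of the same sex asked which genes depend on these homeodomain transcription factors. No member passed in any of the 7 comparisons. At E19 0 of 26 (female) and 0 of 27 (male) members tested passed for Cux1 KO, against 0.0576% and 0.0979% of all genes, and 0 of 28 and 0 of 26 for Cux2 KO, against 0.0287% and 0.121%. At an unadjusted p under 0.05 there were 3, 8, 2 and 0 members, or 11.5%, 29.6%, 7.14% and 0% of those tested, where all genes gave 6.87%, 10.4%, 4.62% and 7.94%. DESeq2 without shrinkage also called 0 members in these 4 comparisons, and 0.156%, 0.381%, 0.0995% and 0.313% of all genes.

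Cdh10, a type II cadherin of excitatory neurons, was the member of smallest p in both sexes for Cux1 KO at E19. In females it was at 77.4, 91.4, 85.3 and 95.0 CPM in Cux1 KO and 56.2, 61.2, 51.4 and 85.9 CPM in WT (log2 difference 0.45 ± 0.14, unadjusted p = 0.0062, edgeR adjusted p = 0.56). In males it was at 83.4, 73.1, 89.6 and 75.6 and at 59.9, 62.9, 43.5 and 61.6 CPM, without overlap (0.48 ± 0.12, unadjusted p = 0.0020, adjusted p = 0.24). Male Pcdh8 was at 223, 184, 182 and 219 CPM in Cux1 KO and 151, 169, 153 and 165 in WT, also without overlap (0.32 ± 0.09, adjusted p = 0.26). Male Cdh9 stayed at or below 1.67 CPM (−1.73 ± 0.51, adjusted p = 0.29). In females Pcdh18 differed by 0.38 ± 0.12 and Cdh13 by −0.78 ± 0.33 (adjusted p = 0.61 and 0.71), the latter by −0.30 without WT replicate 4.

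For Cux2 KO at E19 the leading member was Pcdh7 in females, at 46.4, 38.8, 39.0 and 45.7 CPM in Cux2 KO and 26.7, 36.7, 21.5 and 31.9 CPM in WT. These groups did not overlap, and the difference did not pass (0.54 ± 0.16, unadjusted p = 0.0047, edgeR adjusted p = 0.71). Female Cdh4 and Cdh5 differed by −0.33 ± 0.14 and 1.81 ± 0.84, the latter at 0.71 CPM on average in WT and at 0.82 on the log2 scale without Cux2 KO replicate 1. Endothelial sums were 18 to 75.1 CPM in these Cux2 KO libraries and 12.7 to 20.1 CPM in WT, and their part was not tested. In males Pcdh8, Cdh10 and Pcdh17 differed by 0.26 ± 0.13, 0.26 ± 0.13 and 0.29 ± 0.15, with unadjusted p of 0.065, 0.075 and 0.079 by edgeR.

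At P4, 0 of 25 members tested passed for male Cux1 KO, 0 of 26 for female and 0 of 27 for male Cux2 KO, while 0% of all 19601, 19538 and 19720 genes passed. As edgeR called no gene in these fits, the 0 members cannot show that the members do not depend on Cux1 or Cux2 at P4. At an unadjusted p under 0.05 there were 3, 1 and 3 members, against 20.5%, 7.39% and 5.76% of all genes. DESeq2 without shrinkage called 3 members in Cux1 KO (Cdh7, Cdh9, Cdh15), 0 in female and 2 in male Cux2 KO (Cdh15, Cdh17), each with every library of 1 group at 0 counts. The same fits called 11.9%, 0.598% and 1.21% of all genes. Cdh9 in Cux1 KO rested on 1 library, at 0 and 8.52 CPM. In male Cux1 KO the median log2 difference was −0.50 over the members tested and −0.18 over all genes. Pcdh10, the delta-2 member known as OL-protocadherin, was at 78.8 and 119 CPM in Cux1 KO and at 220, 148 and 162 in male WT (−0.86 ± 0.28, edgeR adjusted p = 0.19). Cdh7 had 0 counts in both Cux1 KO libraries and 0.22, 5.97 and 8.24 CPM in WT, at least 42.4-fold lower by the mean. Cdh15 (M-cadherin, of muscle) was at 4.38 and 4.39 CPM in Cux1 KO and 0 in 3 of 3 WT males, at least 73.1-fold higher. The Cux1 KO cells received pCALNL-GFP and pCAG-iCre in heterozygous animals, where WT cells received pCAG-GFP alone. These differences in design cannot be told apart from the loss of Cux1. The 2 Cux1 KO libraries stood apart from the 3 of male WT. They had 17049 and 19115 genes detected against 20844 to 22546, and mt-Atp6 and mt-Atp8 at 0 in both. Upper-layer sums were 1661 and 2204 CPM against 1096 to 1344, intermediate progenitor sums 275 and 372 against 789 to 862, and ciliated cell sums 2.75 and 11.2 against 55.1 to 125. In these 2 libraries endothelial sums were 0 and 47.8 CPM with 5 of 12 markers at 0 in both, against 156 to 292 CPM in WT males, and oligodendrocyte lineage sums were 1448 and 1502 CPM against 2719 to 3730 in WT males. The part of these cells and of the lower number of genes detected in the differences, the bounds at 0 counts included, was not tested.

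In female Cux2 KO at P4, Pcdh7 was at 97.8, 87.3 and 104 CPM against 55.0, 74.7 and 38.1 CPM in WT, without overlap (0.80 ± 0.24, unadjusted p = 0.012, edgeR adjusted p = 0.61). Pcdh15 and Cdh11 differed by 0.69 ± 0.29 and 0.65 ± 0.31. In males Pcdh9 was at 206, 229 and 176 CPM against 245, 275 and 451 CPM (−0.62 ± 0.24, adjusted p = 0.80). Cdh17, a cadherin of intestine, was at 0.96, 1.25 and 2.01 CPM and Cdh15 at 0.40, 1.14 and 0.42 CPM, with all male WT libraries at 0, which makes them at least 23.4-fold and 10.9-fold higher at these levels.

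Whether the effect of genotype differed between the sexes was tested as an interaction. No member passed an adjusted p of 0.05 by edgeR among 28 for Cux1 at E19, 28 for Cux2 at E19 and 30 for Cux2 at P4, as no gene did in any of them (0% of 18318, 18356 and 21878). With no gene called, the 0 members cannot show that no interaction exists. Over all genes DESeq2 without shrinkage called 146 positive and 130 negative interactions for Cux2 at P4, and 0 for Cux1 and for Cux2 at E19. There were 2, 0 and 3 members with an unadjusted p under 0.05 by edgeR, against 3.81%, 3.78% and 7.27% of all genes. Pcdh7 had the smallest p for Cux2 at P4, with an effect higher in females by 1.19 ± 0.40 on the log2 scale (adjusted p = 0.64). Pcdh9 and Pcdh8 followed at 0.79 ± 0.27 and −1.03 ± 0.46 (adjusted p = 0.65 and 0.68). For Cux1 at E19 Pcdh15, Pcdh18 and Pcdh8 had interactions of 0.90 ± 0.30, 0.40 ± 0.16 and −0.31 ± 0.15, and for Cux2 at E19 Pcdh12, Cdh4 and Pcdh1 had 2.47 ± 1.37, −0.36 ± 0.21 and 0.40 ± 0.24, all with adjusted p of 0.96 or more. The comparisons within a sex share their WT libraries with each other and with the comparisons of the sexes.

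**Figure D5:**
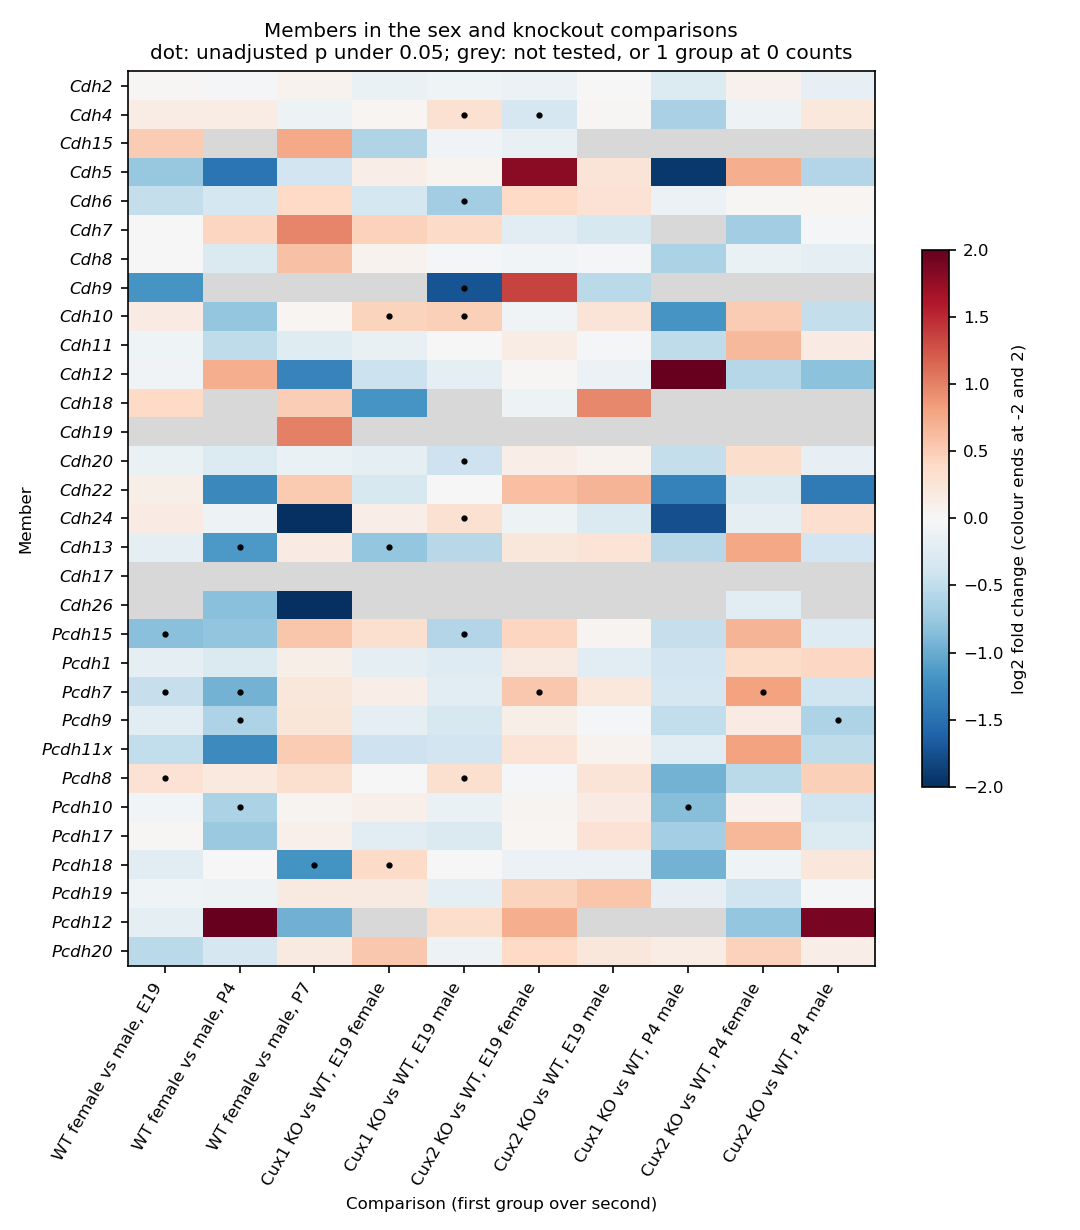
log2 fold change (colour, first group over second, ending at -2 and 2) of the members in the 3 comparisons of WT females with males and the 7 of KO with WT (columns). Dots mark an unadjusted p under 0.05, no cell passed the adjusted threshold, and grey cells were not tested or had a group at 0 counts.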

How the data were processed

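Sorted L2/3 cells of 43 single-sex samples were sequenced as 1 library each. The authors aligned single-end reads with hisat2 to GRCm39 (with sex-specific masking of the Y chromosome), removed duplicates and deposited raw featureCounts counts per Ensembl gene, the only values used here. The library kit does not mark strand, and exons of 17 members overlap an antisense gene (for Pcdh8, Pcdh7, Pcdh20 and Cdh8 by 2108, 2540, 877 and 739 bases), whose reads cannot be told apart.

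Groups came from the sample titles. Each comparison was fitted with edgeR 4.0.16 (R 4.3.3; TMM, filterByExpr, quasi-likelihood F test) on its own libraries, with sex as covariate between stages, and adjusted over all genes tested; SE is the log2 change over the root of F. Calls needed an adjusted p under 0.05 and a log2 change over 0.5 at E19 or 1 later, and for interactions the adjusted p alone. The scripts were tested on simulated data. Alternatives were DESeq2 1.42.0, other scalings and filters, left-out libraries and other designs. Nothing says whether replicates were separate animals, so p-values measure the spread between these samples. Levels per length used the union of GENCODE exons (GRCm39). Groups of 0 counts were given as bounds at a floor of 3 counts per library; bounds and depths cover counting error only. Named members were those past the threshold, Cdh13, Cdh8 and Pcdh19 between stages, Pcdh19 and Pcdh11x between sexes, and otherwise the 3 of smallest p; from the other lists at most 5 that passed. The members, gene lists and tests were chosen with earlier results of these data known.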

Additional observations from a re-analysis of the deposited data

Results flagged for a closer look

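In 11 of 148 groups of 4 E19 libraries, 1 library stood far from the other 3 for a member (gap over range above the 95% critical value of Dixon's test, which chance passes in about 1 in 20 groups). In male Cux1 KO, replicate 3 was high for Cdh20 at 15.5 CPM (others 12.8 to 13.0) and for Cdh7 at 9.50 CPM (5.09 to 5.44). In the same group Cdh13 was at 25.1 CPM in replicate 1 (others 11.2 to 13.3) and Pcdh11x at 4.34 CPM in replicate 2 (3.48 to 3.62). In female Cux1 KO, replicate 3 was low for Pcdh8 at 171 CPM (others 204.6 to 204.9) and high for Pcdh7 at 38.2 CPM (29.6 to 30.9). In female Cux2 KO, replicate 4 was high for Cdh6 at 29.1 CPM (22.3 to 23.3) and low for Cdh11 at 32.9 CPM (50.5 to 52.5), and in male Cux2 KO replicate 2 had Cdh24 at 60.5 CPM (32.3 to 36.7). In male WT, Pcdh15 was at 12.6 CPM in replicate 1 (8.45 to 8.90) and Cdh10 at 43.5 CPM in replicate 3 (59.9 to 62.9). The last 2 libraries enter the comparisons above in which Pcdh15 differed by sex and Cdh10 by Cux1 genotype with small unadjusted p, and neither difference passed the adjusted test.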

How the results depend on the processing

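The number of members that passed between E19 and P4 was 17, and between 17 and 22 under DESeq2 size factors, DESeq2, no filter, a robust prior, a replicate block or the adjusted p alone. It was 15 to 18 with any library left out and 13 with Cux2 KO libraries, an alternative chosen after seeing the data. Between P4 and P7 the count of 1 became 2 with DESeq2 without shrinkage (adding Cdh15), 3 with the adjusted p alone, and 0 to 2 with a library left out. The zero counts became 1 for sex at P4 and 1 for sex at P7 with DESeq2 without shrinkage. For male Cux1 KO at P4 the count became 3 with DESeq2 without shrinkage, 1 with its prior (Cdh15) and 1 with all P4 groups in one fit (Cdh7), and for male Cux2 KO at P4 it became 2 without shrinkage. The cause was not tested. Over all genes DESeq2 without shrinkage called 107 higher and 131 lower in females at P4, and 972 higher and 2270 lower in male Cux1 KO at P4, where edgeR on the libraries compared called 0. edgeR with all P4 groups in one fit called 874 higher and 1723 lower in male Cux1 KO and 1 higher and 6 lower in females, and without a filter 1 and 4 in females.

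The log2 difference of Pcdh19 changed sign with single libraries left out, running from −0.11 to 0.33 between P4 and P7, and between the sexes from −0.44 to 0.20 at E19, −0.63 to 0.30 at P4 and −0.45 to 0.63 at P7. That of Pcdh11x between the sexes at P7 ran from −0.10 to 0.96. Replicate numbers were fitted as a replicate block, but no comparison with 3 or more pairs had every correlation of same-numbered samples over 0.1. The block gave 17 members between E19 and P4 (9 up and 8 down, with Cdh26 lost and Cdh15 gained), 1 between P4 and P7 (152 of all genes against 480 without it) and 0 elsewhere. Calls at low levels (Cdh5, Cdh7, Cdh9, Cdh15, Cdh17, Cdh18, Cdh26) are limited by uneven counts between libraries and not by depth alone. Cdh26 had 0, 0 and 697 counts in the WT males at P4, and Cdh9 had 0 and 345 in the Cux1 KO males at P4. The libraries were made with a low-input kit, and its part in this spread was not tested.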
